A study of Bos taurus with 64 samples.

Results

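miR-208a, miR-208b and miR-499 are microRNAs (miRNAs) encoded within introns of myosin heavy chain genes. They were taken by name from the table of miRNA counts, as bta-miR-208a, bta-miR-208b and bta-miR-499. All 3 were found among its 1030 names, and all 3 were among the 318 miRNAs with enough counts to be tested. In the RefSeq gene table of the cattle assembly ARS-UCD2.0, MIR208B lies inside MYH7 and MIR208A inside MYH6, which are neighbours on chromosome 10 with 0 genes between them. MIR499 lies inside MYH7B, a related myosin gene, on chromosome 13. The counts were made on another build, ARS-UCD1.2, so no coordinates are given, and the mature sequences are not shown.

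Each of these miRNAs is made from the transcript of the myosin gene that carries it. MYH7 encodes the slow (beta) myosin of type I muscle fibres and of the heart, and MYH6 encodes the alpha myosin best known from the heart. In mice, miR-208b and miR-499 act together to maintain slow myosin and the slow fibre programme by repressing transcription repressors such as Sox6, whereas miR-208a is regarded as a heart miRNA. The muscle list they belong to also holds miR-1, miR-133a, miR-133b and miR-206, which act in myoblast growth and differentiation, and miR-486, which is abundant in muscle and in red blood cells.

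The libraries came from skeletal muscle of Charolais steers, a beef breed, and Holstein-Friesian steers, a dairy breed, with high or low residual feed intake (RFI). RFI is the difference between the feed an animal eats and the feed predicted for its size and growth, so a low value marks an efficient animal. Feed was freshly cut grass, mainly perennial ryegrass, in the earlier phase of 70 days and ad libitum concentrate (86% rolled barley) with limited grass silage in the later phase. Each of the 8 combinations of breed, RFI class and diet had 8 libraries, which came from 59 steers because 5 steers gave a library in both phases. All groups shared this order of diets, so diet cannot be told apart from phase order or age. The sources used here do not give the muscle sampled or the ages.

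Totals ran from 4795950 to 12245155 counts per library (median 8143027). Levels are CPM, or counts relative to a library's total after correction by TMM factors, which set the typical miRNA equal between libraries and ran from 0.511 to 2.43. The label of skeletal muscle was checked with miR-1, miR-133a, miR-133b and miR-206, whose summed level ran from 34812 to 152360 CPM. Most of this sum was miR-133a (mean 74317 CPM) and miR-133b (8983 CPM). miR-1 averaged 247 CPM and miR-206 14.6 CPM. Markers of other cell types were also present. The red-cell miRNAs miR-451 and miR-144 summed to 300.2 to 49575 CPM, and 4 miRNAs of smooth muscle and fibroblasts (miR-143, miR-145, miR-199a-5p and miR-214) to 13866 to 113004 CPM. In bulk muscle, fewer fibres of a type and less RNA per fibre cannot be told apart. High-RFI Holstein-Friesian grass replicate 1 and low-RFI Holstein-Friesian grass replicate 2 stood apart from the rest in miR-143, and leaving both out changed no call for the 3 miRNAs.

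miR-208b was the most abundant of the 3, at 825 ± 234 CPM (SD, n = 64), and ranked 37 of 318 by mean level. Its level was 310 CPM in the lowest library, 803 in the median library and 1408 in the highest, from counts of 2277 to 32224. miR-499 averaged 346 ± 128 CPM (SD, n = 64), ranked 60, and ran from 121 through a median of 342 to 857 CPM, from counts of 841 to 10046. Neither fell below 841 counts in any library. miR-208b gave more reads than miR-499 in 64 of 64 libraries, with 2.39 miR-208b reads per miR-499 read in the median library (range 1.203 to 5.66). These are ratios of reads, and sequencing libraries do not capture all miRNAs equally.

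miR-208a was close to the counting floor. It averaged 1.1999 ± 1.46 CPM (SD, n = 64), ranked 281, and had 0 counts in 1 library and 3 or fewer in 13. The median library held 7 counts (0.798 CPM) and the highest 70 (9.34 CPM). In the library with 0 counts, a level of up to 3 counts is allowed by counting alone. Counting alone gives a relative error of 37.8% at 7 counts, and of 3.45% at the lowest miR-499 count.

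The biological coefficient of variation, which is the spread between steers of a group beyond counting error, was 0.291 for miR-208b, close to the median of 0.270 over the 318 miRNAs. It was 0.356 for miR-499, at the 75.5th percentile. That of miR-208a was 0.731, at the 97.5th percentile. Among the 86 miRNAs that averaged at least 100 CPM, miR-208b lay at the 69.8th percentile and miR-499 at the 84.9th. In comparison, miR-133a had 0.289 and miR-1 0.258.

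Across the 8 groups, the mean level of miR-208b ran from 734 to 910 CPM. In Charolais it was 910 ± 204 CPM in high-RFI steers on grass and 895 ± 307 in low-RFI steers on grass, and 835 ± 182 and 742 ± 292 on concentrate. In Holstein-Friesian it was 789 ± 232 and 795 ± 296 CPM on grass, and 898 ± 207 and 734 ± 127 on concentrate, again high RFI before low RFI (SD, n = 8 each). With the 8 means sorted by size, neighbours differed by at most 59.5 CPM, less than the smallest SD within a group (127 CPM). That SD describes single libraries and not the error of a mean, so this is no test of the means. The plot of levels by library shows that the ranges of the 8 groups overlapped, though some groups reached further than others.

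miR-499 had its highest group mean in high-RFI Holstein-Friesian steers on concentrate (392 ± 148 CPM) and its lowest in low-RFI Charolais steers on concentrate (296 ± 158 CPM; SD, n = 8). On grass it stood at 372 ± 90.4 CPM in high-RFI Charolais, 340 ± 115 in low-RFI Charolais, 372 ± 200.5 in high-RFI Holstein-Friesian and 304 ± 92.0 in low-RFI Holstein-Friesian. The remaining concentrate groups were at 357 ± 95.3 (high-RFI Charolais) and 335 ± 113 CPM (low-RFI Holstein-Friesian). With these means sorted by size, the largest gap between neighbours, 31.5 CPM, was below the smallest SD, 90.4 CPM, which again is no test of the means.

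**Figure D1:**
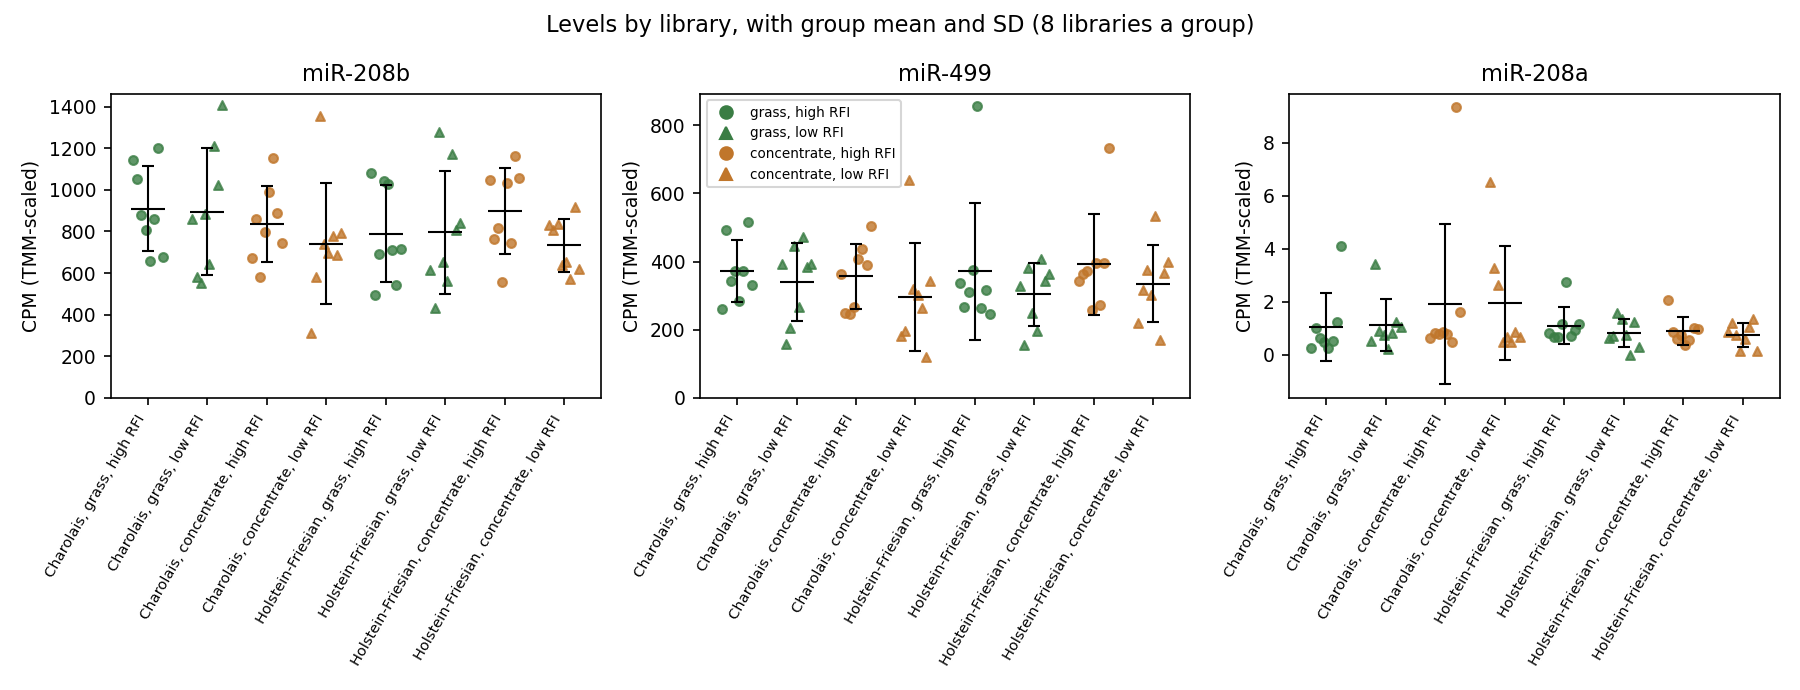
Level of each miRNA (CPM, TMM-scaled; y axis) in the 8 groups (x axis), with a point for each library, and the group mean with its SD (8 libraries a group). The ranges of the 8 groups overlap for miR-208b and for miR-499, though some groups reach further than others. miR-208a lies near 1 CPM except for a few mostly Charolais libraries, the highest at 9.34 CPM.

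The comparison of diets asked whether muscle miRNAs differ between grass and concentrate feeding. For miR-208b the grass libraries were at 433, 825 and 1408 CPM (lowest, median, highest; n = 32) and the concentrate libraries at 310, 785 and 1355 CPM. All but 1 grass library lay within the range on concentrate. The log2 difference, concentrate minus grass averaged over the breeds and RFI classes, was -0.08 ± 0.10 (SE; 95% interval -0.29 to 0.13; adjusted p = 0.579, edgeR). For miR-499 it was -0.01 ± 0.13 (-0.27 to 0.25; adjusted p = 0.957), with means of 345 ± 129 CPM on concentrate and 347 ± 129 on grass (SD, n = 32 each). For miR-208a it was 0.34 ± 0.30 (-0.26 to 0.94; adjusted p = 0.387). Thus 0 of the 3 were called, where 34% of all tested miRNAs were (108 of 318, with 57 higher and 51 lower on concentrate).

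The intervals limit a mean diet difference of miR-208b to between 0.819-fold and 1.09-fold, and that of miR-499 to between 0.832-fold and 1.19-fold, under this scaling. The call for miR-208b depended on the scaling. With total counts in place of TMM factors its difference was -0.35 (adjusted p = 0.0209), but the median of all tested miRNAs was then -0.24, against 0.01 with TMM. miR-208b therefore stood 0.11 below the typical miRNA under total counts and 0.10 below under TMM. The plot of differences by scaling shows the members with this median.

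Within the breeds, miR-208b differed by -0.20 ± 0.15 in Charolais (adjusted p = 0.355) and by 0.03 ± 0.15 in Holstein-Friesian (adjusted p = 0.894). miR-499 differed by -0.13 ± 0.18 (adjusted p = 0.672) and 0.11 ± 0.18 (adjusted p = 0.695). miR-208a differed by 0.92 ± 0.40 in Charolais (unadjusted p = 0.0248, adjusted p = 0.0877) and by -0.24 ± 0.44 in Holstein-Friesian (adjusted p = 0.738). None was called, against 20.8% of tested miRNAs in Charolais and 24.2% in Holstein-Friesian. The interaction of breed with diet, which tests the difference between the breeds' diet responses, was 0.23 ± 0.21 for miR-208b (adjusted p = 0.492), 0.24 ± 0.26 for miR-499 (adjusted p = 0.561) and -1.16 ± 0.59 for miR-208a (adjusted p = 0.263), where 3.46% of miRNAs were called.

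In the 5 steers with a library from both phases, the direction of miR-208b and miR-499 depended on the scaling, and 1 of the 5 was labelled high RFI on grass and low RFI on concentrate. With TMM factors, miR-208b went from 1142 to 861 CPM, 1081 to 1046, 1053 to 1355, 884 to 737 and 675 to 886 CPM from grass to concentrate. Its mean log2 difference was 0.01 ± 0.36 (SD, n = 5; two-sided exact sign-flip permutation p = 1). In the same order miR-499 went from 262 to 249, 337 to 344, 493 to 638, 445 to 319 and 332 to 389 CPM, a mean difference of 0.01 ± 0.33 (exact permutation p = 0.9375). Under total counts miR-499 was lower on concentrate in 5 of 5 steers (mean -0.69 ± 0.75, exact permutation p = 0.063) and miR-208b in 4 of 5 (-0.69 ± 0.90, exact permutation p = 0.1875). The median of all tested miRNAs was then -0.65 in these steers, against 0.01 with TMM. With TMM factors, miR-208a went from 0.259 to 0.802, 0.805 to 2.06, 0.997 to 2.65, 0.743 to 0.470 and 4.10 to 9.34 CPM. In the same order its counts went from 3 to 3, 24 to 12, 7 to 14, 4 to 3 and 38 to 70. It was higher on concentrate in 4 of 5 steers with TMM (mean 0.83 ± 0.73, exact permutation p = 0.125) and in 3 of 5 under total counts (0.26 ± 0.63, exact permutation p = 0.4375), and the smallest p that 5 pairs allow is 0.063.

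**Figure D2:**
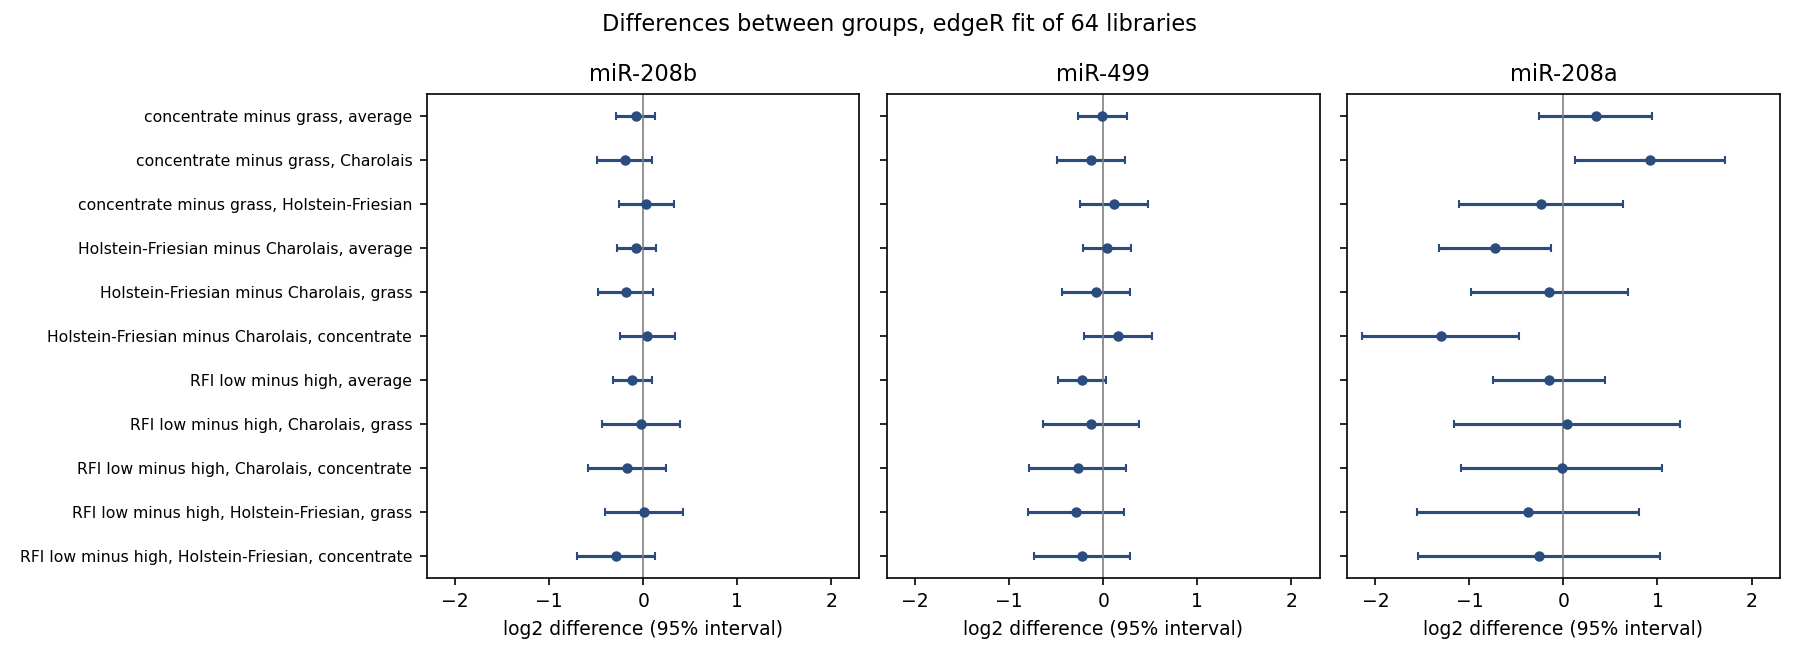
Log2 difference with its 95% interval (x axis) for 11 comparisons of diet, breed and RFI (y axis), from the edgeR fit of 64 libraries, with a panel for each miRNA. All intervals of miR-208b and miR-499 include 0. Those of miR-208a are wider. They exclude 0 for breed on average, for breed on concentrate and for diet in Charolais, though none of these was called.

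The breed comparison asked how muscle miRNAs differ between a beef and a dairy breed. miR-208b was at 310, 803 and 1408 CPM in Charolais and at 433, 786 and 1276 CPM in Holstein-Friesian (lowest, median, highest; n = 32 each), so that all 32 Holstein-Friesian libraries lay within the Charolais range. The log2 difference, Holstein-Friesian minus Charolais, was -0.07 ± 0.10 (95% interval -0.28 to 0.14; adjusted p = 0.639). For miR-499 it was 0.04 ± 0.13 (-0.22 to 0.29; adjusted p = 0.853), with means of 351 ± 141 and 341 ± 116 CPM. For miR-208a it was -0.73 ± 0.30 (-1.32 to -0.13; unadjusted p = 0.0170, adjusted p = 0.0683). None of the 3 was called, where 21.7% of tested miRNAs were.

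On grass alone, where 30.2% of tested miRNAs were called, the breed difference of miR-208b was -0.19 ± 0.15 (adjusted p = 0.377), that of miR-499 -0.08 ± 0.18 (adjusted p = 0.804) and that of miR-208a -0.15 ± 0.42 (adjusted p = 0.845). The sign for miR-208b turned to 0.022 under total counts, where the median miRNA moved to 0.20. On concentrate, where 1.57% were called, the differences were 0.04 ± 0.15, 0.16 ± 0.18 and -1.30 ± 0.42 (adjusted p = 0.914, 0.734 and 0.0857). These comparisons share their libraries with the average breed difference and are not independent of it.

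**Figure D3:**
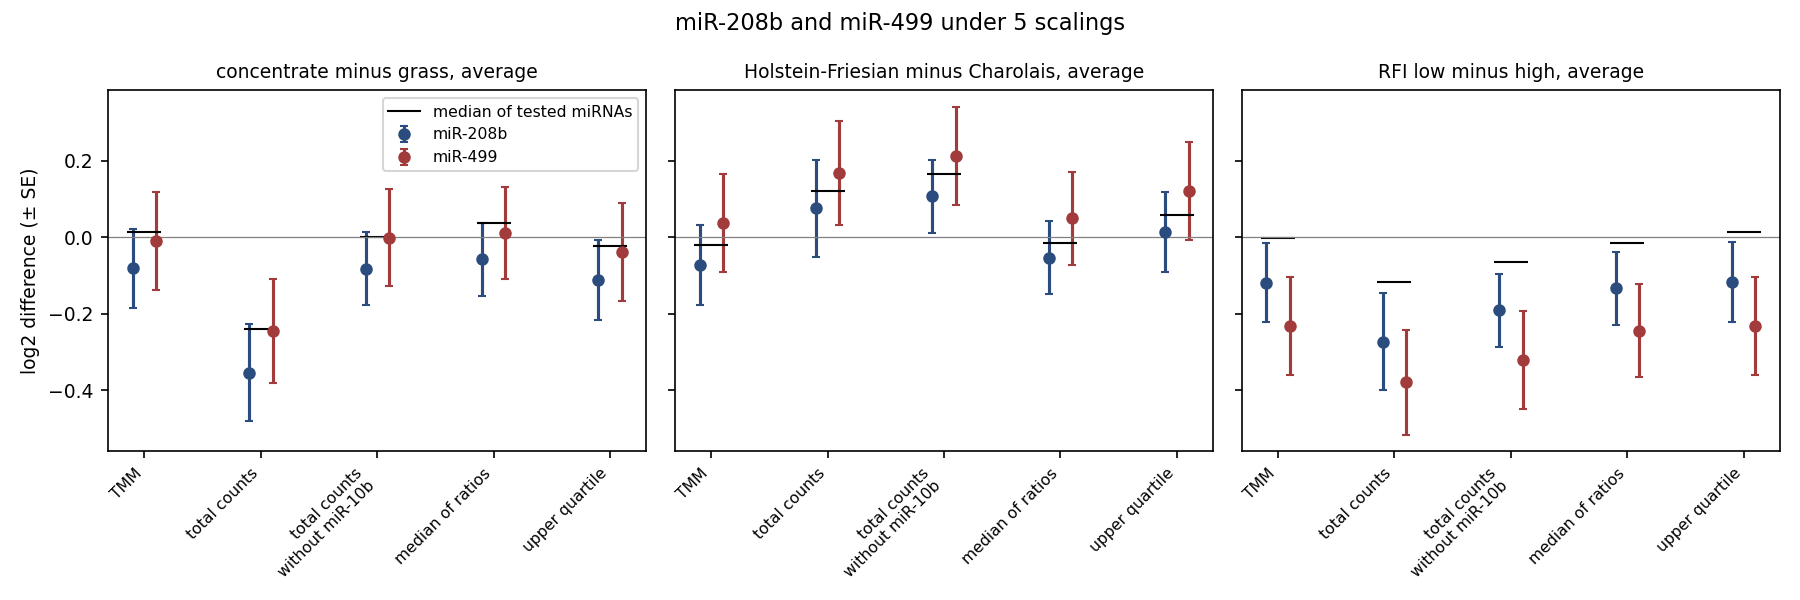
Log2 difference ± SE (y axis) of miR-208b and miR-499 under 5 scalings of the counts (x axis), averaged over groups, for diet, breed and RFI, with the median of all tested miRNAs as a black bar. Under total counts the diet difference of miR-208b is -0.35 and the median miRNA -0.24.

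Feed efficiency was addressed by setting low-RFI against high-RFI steers. miR-499 had the lower mean in low-RFI steers in 4 of 4 combinations of breed and diet, but none of these differences was called (adjusted p of 0.775 or more, edgeR). It averaged 319 ± 117 CPM in low-RFI and 373 ± 134 in high-RFI libraries (SD, n = 32 each), a log2 difference of -0.23 ± 0.13 (95% interval -0.49 to 0.03; unadjusted p = 0.0767, adjusted p = 0.9997). Of the low-RFI libraries, 19 of 32 lay below the high-RFI median. Within the high-RFI range lay 23 of 32, and the other 9 lay below it. Under total counts the difference was -0.38 (unadjusted p = 0.00713, adjusted p = 0.796, edgeR), where the median of all tested miRNAs was -0.12. Without replicate 5 of high-RFI Holstein-Friesian on grass the miR-499 difference was -0.18, with no call in either.

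For miR-208b the RFI difference was -0.12 ± 0.10 (95% interval -0.33 to 0.09; adjusted p = 0.9997), and 22 of 32 low-RFI libraries lay below the high-RFI median. Its largest difference was in Holstein-Friesian on concentrate, where low-RFI libraries averaged 734 ± 127 CPM and high-RFI libraries 898 ± 207 (SD, n = 8), and where 8 of 8 low-RFI libraries lay below the high-RFI median, all within the high-RFI range. That difference was -0.29 ± 0.21 on the log2 scale (adjusted p = 0.631, edgeR). miR-208a differed by -0.15 ± 0.30 (-0.75 to 0.44), and ran from -0.31 to 0.12 when a library was left out. It was 0.32 without the steer with most miR-208a and 0.39 with the animal as a fixed block, with no call in any of these. In the edgeR test 0 of 318 miRNAs (0%) were called for RFI in any breed and diet or on average, and 11 had an unadjusted p under 0.05 on average, against 10 to 34 within a breed and diet. DESeq2 and limma-voom also called 0 in these contrasts. Other settings called up to 5 miRNAs for RFI in Holstein-Friesian on concentrate (5 with upper-quartile scaling and 3 with total counts without miR-10b), none of them a member. The interactions of RFI with breed and with diet called 0 miRNAs too (0%), with 32 and 14 at an unadjusted p under 0.05, and upper-quartile scaling called 2 for RFI by breed. For miR-208b they were -0.04 ± 0.21 and -0.23 ± 0.21, and for miR-499 -0.06 ± 0.26 and -0.04 ± 0.26.

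Ratios of counts within a library do not depend on its scaling, and 24 were tested (3 ratios in 8 comparisons). The log2 ratio of miR-208b to miR-499 averaged 1.35 ± 0.33 in Charolais on grass, 1.31 ± 0.45 in Charolais on concentrate, 1.26 ± 0.39 in Holstein-Friesian on grass and 1.21 ± 0.44 in Holstein-Friesian on concentrate (SD, n = 16). Its differences ran from -0.11 to 0.22 over the 8 comparisons (permutation p from 0.273 to 0.861, adjusted p of 0.894 or more). Set against miR-133a, miR-499 was higher in Holstein-Friesian than in Charolais on grass by 0.38 ± 0.19 (permutation p = 0.0417) and lower in low-RFI than in high-RFI Charolais on grass by 0.44 ± 0.19 (exact permutation p = 0.0413). Neither passed the adjustment over the 24 tests (adjusted p = 0.471 for both). In the edgeR fit miR-133a itself was lower in Holstein-Friesian on grass, by -0.43 (adjusted p = 0.0173). For RFI in Charolais on grass, miR-499 itself differed by -0.13 in that fit. There miR-133a averaged 96608 ± 27950 CPM in low-RFI and 79180 ± 13475 in high-RFI steers (SD, n = 8 each).

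miR-208b and miR-499 varied together from steer to steer. After the group means were removed, Pearson's r of their log2 levels was 0.72 over the 32 grass libraries (Spearman's rho 0.75; permutation p = 1e-05, the smallest that 100000 resamples can give, adjusted p = 4.5e-05). Over the 32 concentrate libraries r was 0.56 (rho 0.53; permutation p = 0.00086, adjusted p = 0.0026). Without the 2 libraries farthest from the median of miR-208b, r was 0.69 on grass and 0.41 on concentrate. With 1 library per steer (n = 59) r was 0.62 and rho 0.65. The values are on a shared scaling, and r rose to 0.79 on grass and 0.64 on concentrate under total counts. For miR-208a, the 6 correlations with the pair lay between -0.15 and 0.04, with adjusted p of 0.55 or more, out of 9 relations tested. Without the 2 libraries farthest from the median of miR-208a they lay between -0.001 and 0.20. The median library held 7 miR-208a counts, and counting error weakens such r. They therefore cannot show whether miR-208a varied with the pair.

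**Figure D4:**
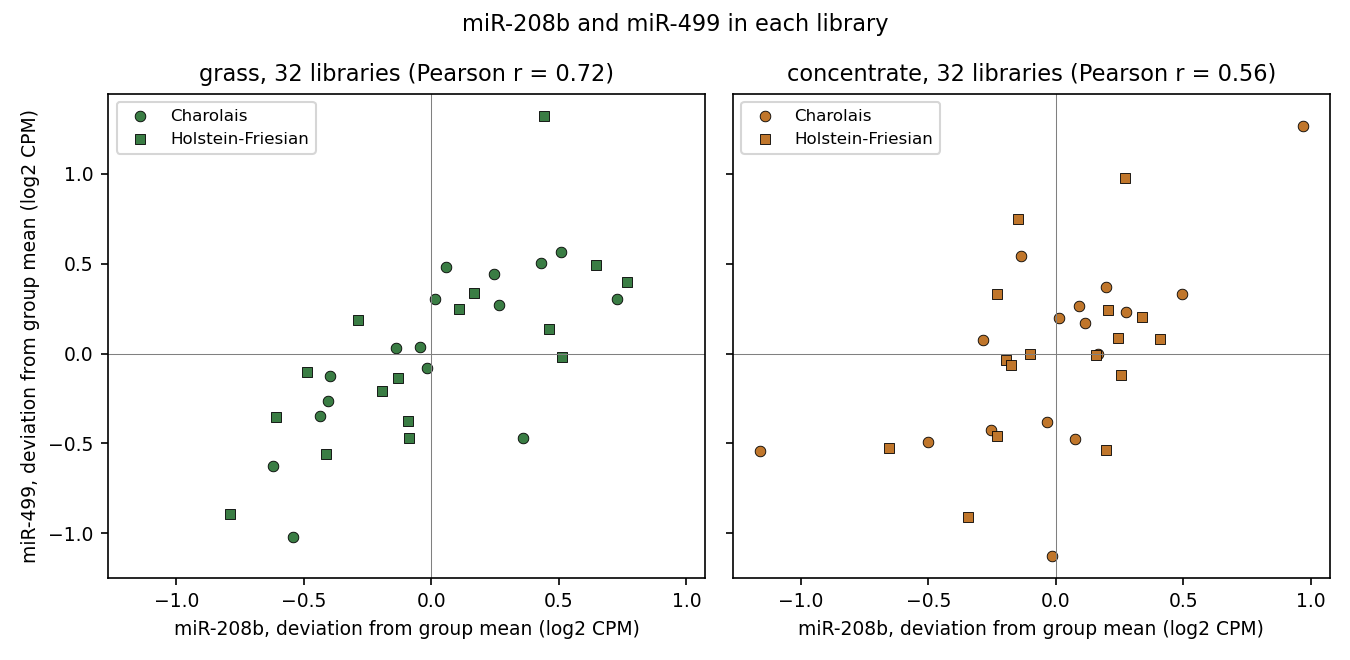
Deviation of each library from its group mean in log2 CPM, miR-208b on the x axis and miR-499 on the y axis, for 32 grass and 32 concentrate libraries, circles for Charolais and squares for Holstein-Friesian. Libraries high in miR-208b are mostly high in miR-499, with r = 0.72 on grass and 0.56 on concentrate.

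Among the 171 miRNAs averaging at least 10 CPM, the pattern most like that of miR-208b over the 64 libraries was that of miR-499 (r = 0.64), and the reverse held too. The 171 had a median r of 0.14 with miR-208b and 0.13 with miR-499. After miR-499 came miR-29c (0.53), miR-125b (0.53), let-7g (0.52) and miR-30c (0.50) for miR-208b. For miR-499 the next were miR-29d-5p (0.53), miR-29c (0.50), miR-1468 (0.47) and let-7a-3p (0.45). Of the other muscle miRNAs, miR-133a ranked 11 with miR-208b (r = 0.44) and 36 with miR-499 (0.26), and miR-1 ranked 33 and 74. These r are descriptions over libraries that share a scaling, and 5 steers count in them with 2 libraries each.

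The higher levels of miR-208a were held by few steers. The 4 libraries with most counts held 187 of its 636 counts (29.4%), and all 4 were Charolais. They were high-RFI concentrate replicate 7 with 70 counts (9.34 CPM), low-RFI concentrate replicate 1 with 48 (6.53 CPM), high-RFI grass replicate 8 with 38 (4.10 CPM) and low-RFI concentrate replicate 2 with 31 (3.29 CPM). The libraries with 70 and 38 counts came from the same steer, on concentrate and on grass. The medians of the 16 libraries on each diet hardly differed, at 0.788 CPM in Charolais and 0.783 in Holstein-Friesian on grass, and 0.798 CPM in each breed on concentrate.

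miR-208a and miR-208b belong to a single seed family, and miR-208a was also expressed as a share of their joint reads. Pooled over libraries, it made up 0.138% of these reads (636 beside 460457; 95% Wilson interval 0.128 to 0.149, counting error only). The median library had 0.0990%. In 6 libraries the interval lay above the pooled share, 5 of them Charolais, and in 10 it lay below. The highest shares were 2.06% in low-RFI Charolais concentrate replicate 1 (1.56 to 2.73), and 1.04% (0.826 to 1.32) and 0.605% (0.441 to 0.829) in the steer with most miR-208a. The pooled share includes these high libraries, and the intervals hold no variation between steers. The sources used here do not state how the authors assigned reads that match several miRNAs.

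**Figure D5:**
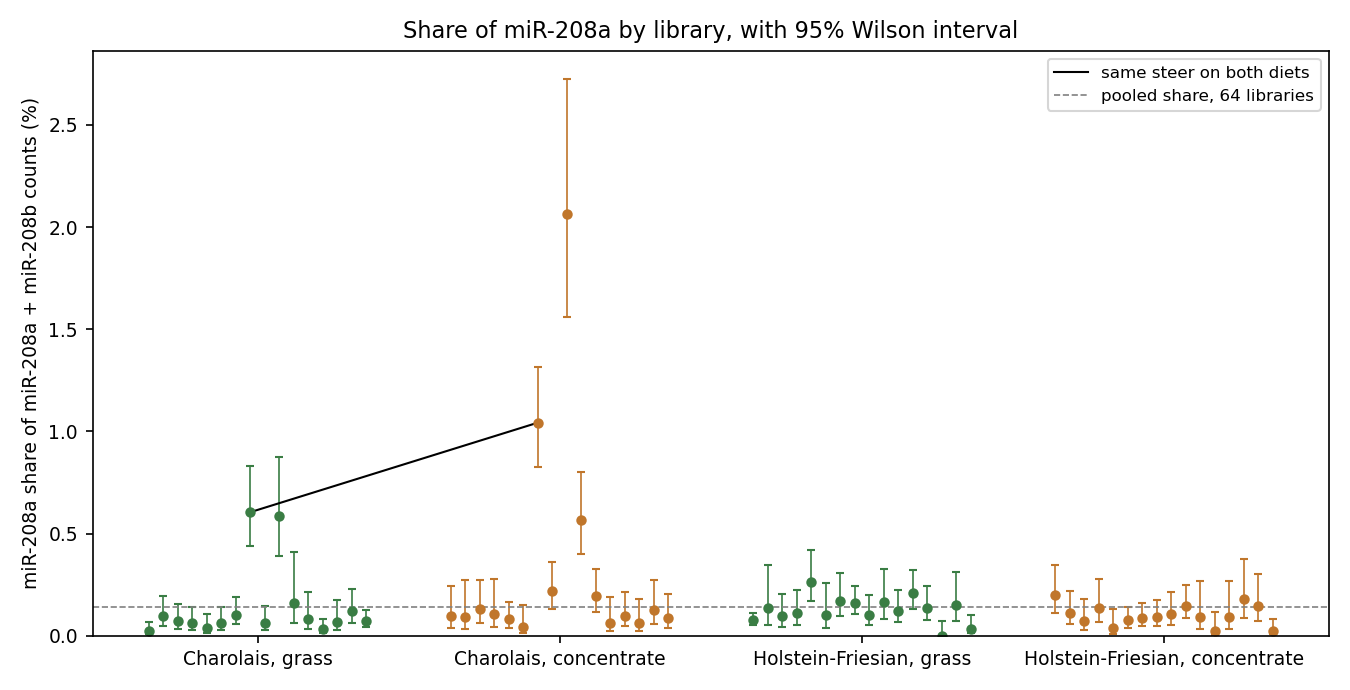
Share of miR-208a in the reads of miR-208a and miR-208b (%, y axis) in each library with its 95% Wilson interval, by breed and diet (x axis). The median library lies at 0.0990%, below the pooled 0.138% (dashed). The steer joined by a line is above the pooled share on both diets, at 0.605% and 1.04%.

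The miR-208a estimates for breed and diet changed in size when some of these libraries were left out. Without both libraries of the steer with most miR-208a, the breed difference was -0.23 in place of -0.73 (adjusted p = 0.560) and that on concentrate -0.75 in place of -1.30 (adjusted p = 0.309). That steer is a Charolais chosen by these same counts, so leaving it out was bound to lower the Charolais level. Without high-RFI Charolais concentrate replicate 7 alone, the diet difference in Charolais was 0.37 (adjusted p = 0.531). It passed the test without high-RFI Charolais grass replicate 8 (1.40, adjusted p = 0.00704) or low-RFI Charolais grass replicate 2 (1.23, adjusted p = 0.0222). The average breed difference passed with DESeq2 (-0.75, adjusted p = 0.0473) and in 6 of the 64 fits that left out a library (lowest adjusted p = 0.0385), and was -0.34 with limma-voom (adjusted p = 0.393).

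Marker miRNAs of blood and other cells were examined in the same libraries. Of the 6 libraries above the pooled share, the 5 from Charolais ranked between 6 and 19 of 64 for the sum of miR-451 and miR-144 (6681 to 16365 CPM, against a median of 3558 CPM over all libraries), and between 5 and 19 for the 5 leukocyte miRNAs. Their ranks for the 4 skeletal muscle miRNAs ran from 25 to 52. The Holstein-Friesian library ranked 33 for the red-cell and 32 for the leukocyte sum. The libraries that ranked highest for either sum, up to 49575 CPM for the red-cell sum, were not among those above the pooled share. The 5 from Charolais include both libraries of the steer with most miR-208a. Low-RFI Charolais concentrate replicates 1 and 2 and low-RFI Charolais grass replicate 2 ranked 56 to 61 for the endothelial pair miR-126-5p and miR-126-3p and 55 to 57 for smooth muscle and fibroblasts, while both libraries of the steer with most miR-208a ranked 2 and 7, and 8 and 20. Both red-cell miRNAs were called higher on concentrate on average and in Charolais, and 0 of 2 in Holstein-Friesian. Of the 5 leukocyte miRNAs, 4 were called higher on concentrate on average, 3 in Charolais and 1 in Holstein-Friesian. Of all tested miRNAs, 34% were called for diet in either direction on average, 20.8% in Charolais and 24.2% in Holstein-Friesian. The part of these cells in the miR-208a levels was not tested.

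The other muscle miRNAs were read from the same fits. Of the 5 compared, miR-206, a miRNA of differentiating and regenerating muscle, was higher in Holstein-Friesian than in Charolais (log2 difference 0.89 ± 0.16, adjusted p = 6.38e-05) and miR-486 lower (-0.46 ± 0.10, adjusted p = 0.000673), beside the 21.7% of all tested miRNAs called for breed. miR-1 was higher on concentrate on average (0.47 ± 0.09, adjusted p = 2.96e-05). Its diet difference was 0.78 ± 0.13 in Holstein-Friesian (adjusted p = 2.63e-06) and 0.17 ± 0.13, not called, in Charolais (adjusted p = 0.373), and the difference between the breeds was itself called (0.62 ± 0.18, adjusted p = 0.0373). For diet, 1 of the 5 was thus called on average, where 34% of all tested miRNAs were. The median of the 5 was -0.22 for breed and 0.17 for diet, against -0.02 and 0.01 over all tested miRNAs. None of the 5 was called for RFI, where 0% of all tested miRNAs were.

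A list of 11 further miRNAs tied to oxidative metabolism and fibre type was also examined. On average over diets 4 of the 11 were called higher in Holstein-Friesian and 0 lower, beside 21.7% of all tested miRNAs. On grass 4 were called higher and 2 lower, beside 30.2%. On concentrate 0 were called, beside 1.57%. The 4 called on average were miR-23a (0.37 ± 0.10), miR-23b-3p (0.27 ± 0.08), miR-27a-3p (0.21 ± 0.06) and miR-27b (0.17 ± 0.06), with adjusted p from 0.00664 to 0.0265. miR-378, which lies within the PPARGC1B gene and acts in energy metabolism, was lower in Holstein-Friesian on grass (-0.41, adjusted p = 0.00661), as was miR-30e-5p (-0.33, adjusted p = 0.0244). For diet 1 of the 11 was called higher on concentrate (miR-30e-5p, 0.25) and 2 lower (miR-27b, -0.17, and miR-494, -0.41), beside 34% of all tested miRNAs. In Charolais 0 of the 11 were called for diet (miR-30e-5p 0.06, adjusted p = 0.753), beside 20.8% of all tested miRNAs. In Holstein-Friesian 1 was called (miR-30e-5p, 0.45, adjusted p = 0.00223), beside 24.2%. For RFI none of the list was called, where 0% of all tested miRNAs were. The list's median was 0.17 for breed and -0.03 for diet.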

How the data were processed

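Unnormalized estimated counts of 1030 miRNA names in 64 libraries were deposited by the authors. The submitters' processing notes name edgeR 3.5, R 3.4, cutadapt 2.6, FastQC 0.11.8 and the build ARS-UCD1.2. The sources used here do not name the aligner or the miRNA counter. The 3 members held whole counts; other fractional values were rounded, and miR-2285b, which had empty cells, was left out.

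The tests were run in R 4.3.3 with edgeR 4.0.16: filterByExpr over the 8 groups (318 kept), TMM factors, a robust quasi-likelihood fit of 8 group means, and 14 contrasts. Adjusted p-values, unless another tool is named, are Benjamini-Hochberg values over the 318 within a contrast, called at 0.05, and intervals of differences use 56 degrees of freedom. Alternatives were DESeq2 1.42.0, limma-voom (limma 3.58.1), other scalings, no filter, the animal as a block, and leaving out each library. Scripts were tested on simulated data. Correlations used log2 CPM with a prior count of 2, and ratios had 0.5 added to each count.

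Groups, and the pairing of 5 steers across phases by animal number, come from the labels. Correlations of the 5 pairs' deviations from group means were 0.288, -0.111, 0.165, 0.398 and 0.599. Wilson intervals cover counting error only. The members and lists were chosen with earlier results of these data known. Named beside the members are the called miRNAs of each list and the 5 most like each abundant member, by rule.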

Additional observations from a re-analysis of the deposited data

Results flagged for a closer look

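In each group of 8, the highest and the lowest library were compared with their nearest neighbour by Dixon's test for the levels of the 3 miRNAs and for 3 log2 ratios. Of 48 sets tested, 15 had a library that stood apart. The critical value gives about 1 in 20 only for normally spread values. The levels were CPM, not logs, and include miR-208a near the counting floor, and the ratios reuse the same counts. The number of sets flagged is therefore a description and no measure of an excess over chance. Of these, 10 were among the 24 sets of levels and 5 among the 24 sets of ratios.

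miR-208a stood high in 6 of the 8 groups: 9.34 CPM in high-RFI Charolais concentrate replicate 7, 6.53 in low-RFI Charolais concentrate replicate 1, 4.10 in high-RFI Charolais grass replicate 8, 3.42 in low-RFI Charolais grass replicate 2, 2.74 in high-RFI Holstein-Friesian grass replicate 5 and 2.06 in high-RFI Holstein-Friesian concentrate replicate 1. The next values in these groups were 1.63, 3.29, 1.23, 1.23, 1.15 and 0.995 CPM. The libraries at 9.34 and 4.10 CPM are from the same steer.

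Low-RFI Charolais concentrate replicate 3 was high in both abundant members, at 1355 CPM for miR-208b (next 793) and 638 CPM for miR-499 (next 342). miR-499 was also high at 857 CPM in high-RFI Holstein-Friesian grass replicate 5 (next 375) and at 735 CPM in high-RFI Holstein-Friesian concentrate replicate 8 (next 397).

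The log2 ratio of miR-208b to miR-499 was high in high-RFI Charolais grass replicate 1 (2.12) and low-RFI Charolais concentrate replicate 7 (2.50). Against miR-133a, high-RFI Holstein-Friesian grass replicate 5 was high in both miR-208b (-5.47) and miR-499 (-5.73), and low-RFI Holstein-Friesian concentrate replicate 6 was low in miR-499 (-8.86).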

How the results depend on the processing

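In the 14 contrasts, no miR-499 difference changed its call, or its direction beyond its error, under any alternative run. For miR-208b the exceptions came from scaling. Total counts gave a diet difference of -0.35 (adjusted p = 0.0209, past the threshold), -0.30 for diet in Holstein-Friesian and 0.022 for breed on grass, each of the latter turned in sign. Total counts without miR-10b gave 0.043 for breed on grass and 0.11 for the average breed difference, also turned. The cause was not tested, but the median miRNA moved with these scalings, to -0.24, -0.29, 0.20, 0.25 and 0.17. With miR-133b in place of miR-133a, the log2 ratio to miR-208b for diet in Charolais was -0.20 instead of 0.05. In the 5 paired steers, total counts (chosen after seeing the data) turned the mean differences of miR-208b and miR-499, both 0.01 with TMM, to -0.69 and -0.69, beside a median miRNA at -0.65. Leaving out a steer gave -0.09 to 0.11 for miR-208b, -0.07 to 0.14 for miR-499 and 0.73 to 1.15 for miR-208a.

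miR-208a was sensitive to single libraries. DESeq2 called its average breed difference (-0.75, adjusted p = 0.0473), which ran from -0.82 to -0.47 when libraries were left out. Its diet difference in Charolais then ran from 0.37 to 1.40, and its RFI difference in Charolais on concentrate from -0.62 to 1.15. That RFI difference, -0.02 in the reported fit, turned to 1.22 when steers sampled on both diets kept their grass library alone. Without the steer with most miR-208a, an alternative chosen after seeing the data, it was 1.11, and the average RFI difference 0.32.

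With the animal as a fixed block, which pairs the 5 steers, these 2 RFI differences of miR-208a were 1.04 and 0.39, neither called. Neither the fixed nor the random block changed a call of any of the 3 miRNAs. Depth limits miR-208a, with 3 or fewer counts in 13 libraries, and not the other pair.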
